A study of Rattus norvegicus with 30 samples.

Results

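The lungs of 5-week-old rats raised on a tryptophan-deficient diet were compared with the lungs of 1-week-old rats. The arrays were chosen by their titles, which gave 5 deficient lungs and 5 young lungs, or 10 of the 30 arrays of the series. The 5 lungs of 5-week-old rats on a normal diet, called control lungs, were set beside them to show what the same weeks brought without the deficient diet, and the 15 kidney arrays of the series were not used. All rats were wild-type Sprague-Dawley, and each array held RNA of whole lung. The young rats were 7 days old and ate a normal diet. The deficient rats were 35 days old and had been kept short of tryptophan from birth to 4 wk of age, so that they were sampled 1 wk after the deficient diet ended. The control rats were also 35 days old. The animals are named as rats in the title and labels, although the series' design text calls them mice. The question set by the title is how earlier growth inhibition affects the changes that come with age.

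Animals cannot make tryptophan, and a diet that lacks it limits protein synthesis and slows body growth. The rat lung is born immature. In the first weeks after birth its air sacs are divided by new walls, the septa, which are built by myofibroblasts that lay down elastic fibres. The walls then thin, the capillaries are remodelled, the airway and alveolar epithelium takes on its adult enzymes and secretions, and lymphocytes and other immune cells settle in the tissue. Over the same weeks cell division slows, and many growth-promoting genes of the fetus, a good part of them imprinted (expressed from the copy of 1 parent), are turned down.

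The labelled tissue matched its defining markers: the signal of Sftpc, the surfactant protein made by alveolar type 2 cells, lay between 13346 and 20827 on the 15 lung arrays. The arrays had median signals of 171 to 192, and correlations between arrays of a group ran from 0.979 to 0.988. On 5 lung arrays, lists of genes of another organ lay far above the group median. Skeletal muscle genes were high on young replicate 2 and deficient replicate 4, liver genes on young replicate 4 and on deficient replicates 3 and 4, and cardiac muscle and adipose genes on control replicate 3. The farthest was deficient replicate 3, with a mean log2 signal of liver genes of 11.17 against a group median of 7.44. The same array stood at 9.65 for adipose genes, which ran from 8.07 to 9.65 in deficient and from 7.08 to 9.77 in control lungs. No adipose gene of 7 tested was called between the diets, but 4 were higher in deficient lungs once these 5 arrays were left out. Many of the counts and calls that changed without these 5 arrays are given beside the results described below. A count given without such a value can also have moved. Many list counts of 1 or 2 also moved by 1 when a single array was left out. RNA came from whole tissue, so fewer cells of a type and less RNA per cell cannot be told apart. The sources used here do not say when arrays were hybridised, so no batch could be examined.

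Of 10802 genes tested in lung, 5345 (49.5%) differed between deficient and young lungs at an adjusted p of 0.05 in limma, which also gave every other test below. In the deficient lungs 2902 genes (26.9%) were higher and 2443 (22.6%) were lower than at 1 wk. A difference of at least 2-fold was reached by 300 of the higher genes (2.78%) and 148 of the lower genes (1.37%). Set beside this, the control lungs differed from the same young lungs in 5976 genes (55.3%), 3074 higher (28.5%) and 2902 lower (26.9%), with 496 (4.59%) and 338 (3.13%) past 2-fold. Because both comparisons use the same young arrays, they are not independent, and the direct test between deficient and control lungs shows where they part. That test called 1274 genes (11.8%), of which 672 (6.22%) were higher and 602 (5.57%) lower in the deficient lungs. The median difference over all genes was 0.02 log2 for deficient against young lungs. In what follows a gene rose or fell only where the test called it, differences are in log2 units with the standard error (SE) of the fit, and folds are ratios of signal + 16, given only where both groups were well above the low end of the arrays.

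**Figure D1:**
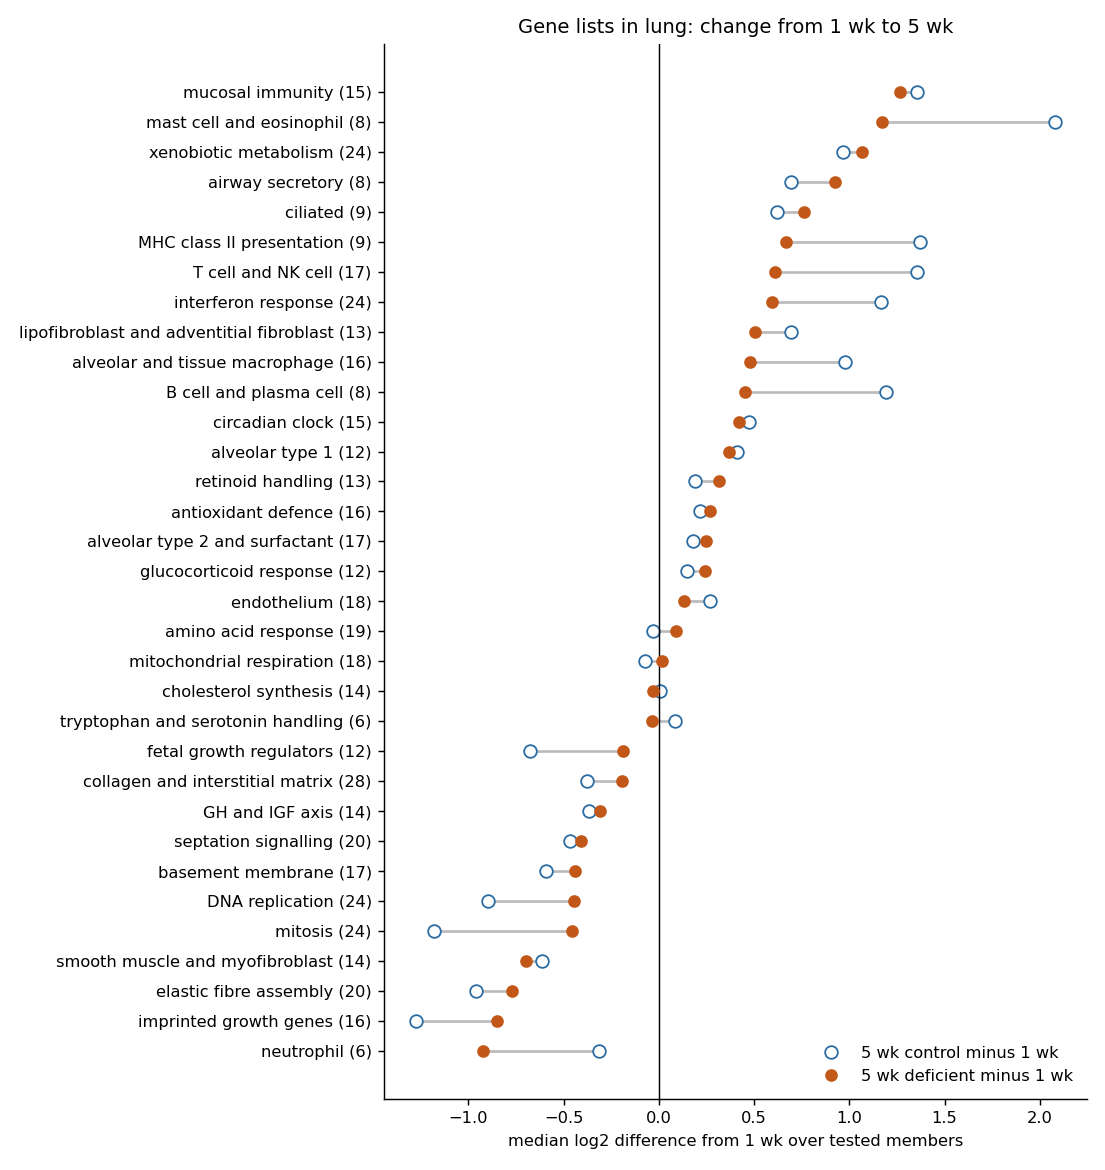
Median log2 difference from 1 wk over the tested members of each gene list, for deficient lungs (filled points) and control lungs (open points), which share the 1 wk arrays; the number of tested genes stands after each name. Both medians of the xenobiotic list lie near 1, while the mitosis list lies at -0.46 in deficient and -1.18 in control lungs and the interferon list at 0.60 and 1.17.

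The plot of list medians orders the programs by their size in the deficient lungs. The 10 genes that rose most between 1 wk and 5 wk in the deficient rats are given first. Cyp1a1, a cytochrome P450 that oxidises aromatic compounds, had signals of 9.64, 5.33, 17.3, 2.42 and 75.6 in young lungs and of 3397, 4309, 4007, 3790 and 3595 in deficient lungs. It was thus near the bottom of the arrays in young lungs and between 3397 and 4309 in each deficient lung, a rise of 6.93 ± 0.38 (adjusted p = 3.18e-09). Cxcl14, a chemokine of epithelia, rose by 5.34 ± 0.18, from at most 37.4 in young lungs to at least 1164. Pigr, the receptor that carries IgA across the epithelium, had 369, 317, 280, 227 and 299 in young lungs. In deficient lungs Pigr stood at 4417, 3437, 4144, 5768 and 3758. The rise was 13.7-fold (3.77 ± 0.13, adjusted p = 6.94e-11), with no overlap between the groups. Control lungs had still more Pigr, 7160 to 8442, and the deficient lungs were 1.83-fold below them (adjusted p = 0.000533).

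Other genes with the largest rises were Bpifa1, a secreted airway defence protein (18-fold), Fmo2, the flavin monooxygenase of adult lung (11-fold), and Retnla, a secreted product of alternatively activated macrophages and epithelium (8.76-fold). Jchain, which joins antibody units for transport by Pigr, rose by 3.76 ± 0.35, and the eosinophil-attracting chemokine Ccl11 by 3.02 ± 0.30. Ly6i rose by 3.78 ± 0.56, but young replicate 1 stood at 1875 while the other young lungs lay between 96.1 and 201. Ighl2 completed the 10 genes with a rise of 3.23 ± 0.47. Among these 10 genes, Pigr and Ccl11 were lower in deficient than in control lungs, and for the other 8 no difference was called. The call for Ccl11 is lost without control replicate 4 (adjusted p = 0.0654) and without the 5 arrays (adjusted p = 0.105).

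Several of the genes that fell most encode matrix proteins of the developing lung. Fbn2, the fibrillin of embryonic microfibrils, had 1337, 1433, 1415, 1423 and 1531 in young lungs. It stood at 76.5, 97.4, 104, 78.3 and 94.9 in deficient lungs and at 38.3, 17.9, 30.4, 36.1 and 12.9 in control lungs. The 3 groups did not overlap. Among all genes tested, groups did not overlap for 35.1% between deficient and young, 41.3% between control and young and 10.2% between deficient and control lungs. The deficient lungs lay close to the controls for Fbn2 but above them, by 1.33 ± 0.15 (adjusted p = 4.92e-05), after a fall of 3.77 ± 0.15 from 1 wk. Each deficient and control value of Fbn2 lay below the filter level of its array (98.6 to 116 in deficient, 98.5 to 108 in control lungs). The gene thus passed the filter through the young lungs alone, and its difference from control is a description at low signal. Tgfbi, a secreted protein that binds collagen and integrins, went from 10463, 10973, 11684, 10255 and 10919 in young lungs to 1328, 1956, 1890, 1409 and 1599 in deficient lungs. This 6.65-fold fall compares with a 9.51-fold fall in control lungs, and the remaining excess of 1.43-fold over control was called (adjusted p = 0.00365). Col25a1, a membrane collagen, fell by 3.86 ± 0.14, and Unc5c, a netrin receptor, fell 5.19-fold.

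Crabp1, a carrier of retinoic acid in immature cells, fell by 3.27 ± 0.21, and its deficient lungs (75.6 to 150) overlapped with the controls (36.2 to 91.5). Nptx1, a secreted pentraxin, fell by 3.07 ± 0.13, and Zfp536, a zinc finger repressor, fell by 3.11 ± 0.29. Of the stefins typical of neutrophils, Stfa3 fell by 4.23 ± 0.25 and Stfa2l2 fell by 3.85 ± 0.35. Clec3b fell by 3.18 ± 0.91 with wide scatter, since the deficient lungs held 157, 1939, 1807, 132 and 122 and 1 control lung held 84.9 while the other 4 were at 1429 or above.

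**Figure D2:**
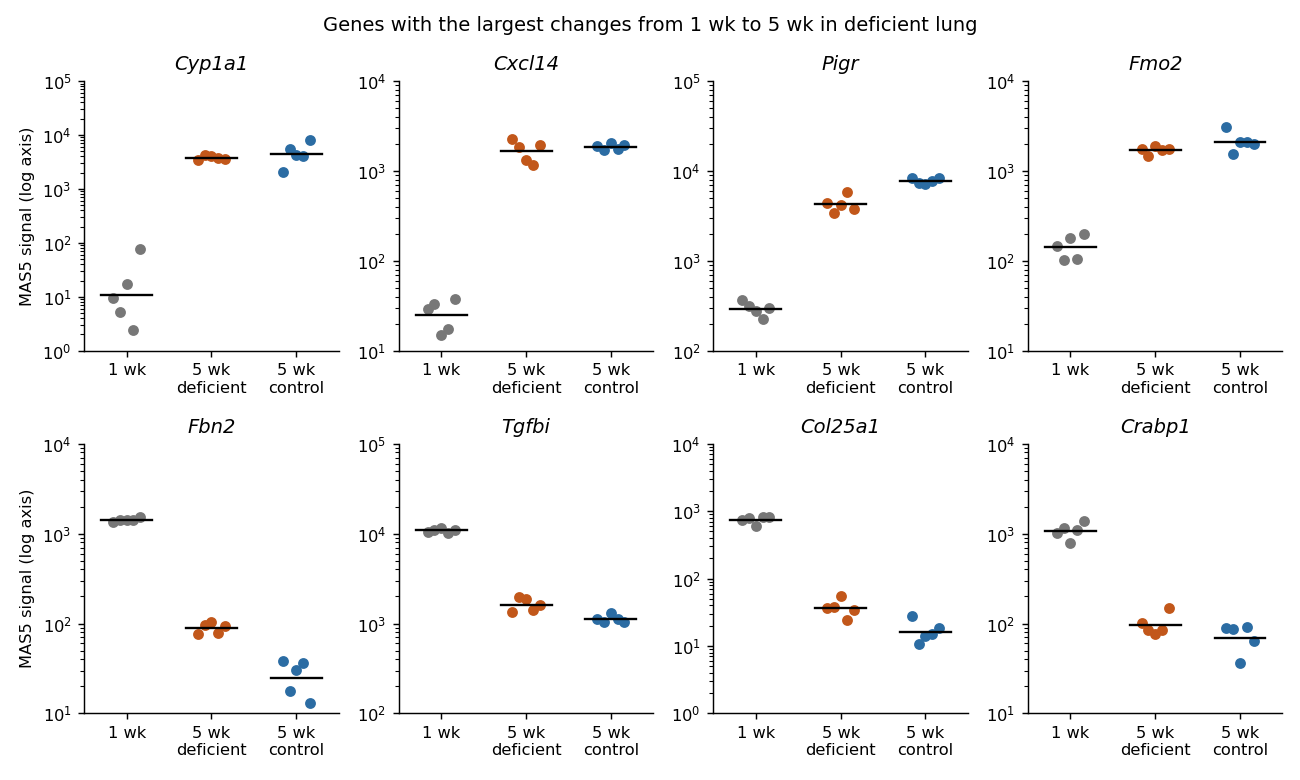
Signal of 8 genes on each of the 15 lung arrays (log axis; each point is 1 array, bars are geometric means), chosen from the 10 genes with the largest rise and the 10 with the largest fall between young and deficient lungs. Deficient and control lungs overlap for Cyp1a1, Cxcl14 and Fmo2, while the deficient lungs lie between young and control lungs for Pigr and Fbn2. For Fbn2 the deficient and control values are at low signal.

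Markers of mature epithelium rose in the deficient lungs. Of 12 tested markers of alveolar type 1 cells, the flat cells across which gas diffuses, 11 rose and none fell, against 26.9% of all genes higher, and no member differed from control lungs. Aqp5, the water channel of these cells, had 558, 642, 768, 726 and 671 in young lungs and 2484, 2343, 2403, 2422 and 2446 in deficient lungs. It rose 3.55-fold, with the 5 deficient lungs within a narrow band below the controls (2491 to 3264). The difference from control, -0.23 ± 0.08, was not called (adjusted p = 0.0877), but it would be without young replicate 1 or control replicate 3 (adjusted p = 0.0489 and 0.0462). Ager, the receptor that marks the type 1 cell, rose 1.54-fold, and Clic5 rose 1.58-fold. Cav1, the coat protein of caveolae, did not pass the test (0.01 ± 0.08). Without the 5 arrays high in genes of other organs, 6 of the 12 markers rose.

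Surfactant-producing type 2 cells were represented by 17 tested genes, of which 9 rose and none fell, against 26.9% of all genes higher. Without the 5 arrays 4 of the 17 rose, a share near that of all genes (2109 of 10802 higher). Sftpa1, a surfactant collectin, had 8741, 9482, 8777, 7703 and 7023 in young lungs and 14758, 14733, 17115, 17260 and 13276 in deficient lungs, a 1.85-fold rise without overlap. Control lungs covered 15322 to 16259, and the interval of the difference from control ran from -0.22 to 0.15. Sftpd, the other surfactant collectin, rose 1.49-fold, and Lamp3, of the lamellar bodies that store surfactant, rose 1.47-fold. Sftpc, Slc34a2 and the lineage factor Nkx2-1 were not called, with differences of -0.09 ± 0.10, 0.02 ± 0.07 and 0.09 ± 0.10.

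In the airways, 9 of 9 tested genes of ciliated cells rose (8 without the 5 arrays), and 5 of 8 genes of secretory cells rose. Among ciliated genes Lrrc23, of the axoneme, rose 2.26-fold, Ak7, an adenylate kinase of cilia, rose 2.41-fold, and Mlf1 rose 2.13-fold. Mlf1 was the 1 member called between deficient and control lungs (2 without young replicate 1 or 4, control replicate 4 or deficient replicate 5), with 1169, 1046, 1044, 1158 and 1027 in deficient and 853, 852, 796, 734 and 674 in control lungs. Its deficient lungs were therefore 1.39-fold above the controls (adjusted p = 0.000683) as well as above the young lungs (466 to 542). Foxj1, the master regulator of motile cilia, rose 1.5-fold. Its excess over control, 0.38 ± 0.12, was not called, but would be without control replicate 4 or deficient replicate 5 (adjusted p = 0.0277 and 0.0315). Among secretory genes Aldh1a1 rose 3.45-fold and Cyp2f4 2.02-fold, while Scgb1a1, the club cell secretoglobin, was not called (0.14 ± 0.08). That last value passes the test without deficient replicate 5 (adjusted p = 0.0118) or with quantile normalization (adjusted p = 0.000354).

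Detoxifying and antioxidant enzymes rose in deficient lungs. Of 24 tested genes of xenobiotic metabolism, 21 rose and 2 fell in deficient lungs, and 20 rose and 2 fell in control lungs, with list medians of 1.06 and 0.97. Cyp2a3, the nasal and lung P450, rose 6.15-fold in deficient lungs. Fmo1, another flavin monooxygenase, had 305, 295, 304, 295 and 249 in young lungs, 1359, 1140, 1511, 1674 and 1411 in deficient lungs, and 2865, 2934, 2695, 2349 and 3063 in control lungs. The deficient lungs thus lay between the other groups with no overlap, 4.67-fold above young and 1.96-fold below control lungs (adjusted p = 2.13e-05 against control). Gstm1, a glutathione transferase, went the other way: the deficient lungs (1651 to 2370) exceeded the control lungs (1054 to 1434) and the young lungs (625 to 1458), and control and young lungs were not called different. The Gstm1 call against control is lost without the 5 arrays (adjusted p = 0.0842). Cyp1b1 fell 3.29-fold, further than the 2.23-fold fall in control lungs, a difference not called without the 5 arrays (adjusted p = 0.099). Of 16 antioxidant genes, 10 rose and none fell in deficient lungs (8 rose without the 5 arrays). The 10 included the extracellular superoxide dismutase Sod3 (2.42-fold) and the plasma glutathione peroxidase Gpx3 (2.28-fold). Of the clock genes, 9 of 15 rose and 4 fell (2 without the 5 arrays). Nr1d1, a repressor within the clock, rose 7.71-fold, from 94.7 to 153 in young lungs up to 858 to 1181, and Dbp rose 3.52-fold. The hour at which the rats were sampled is not given in the sources used here.

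Some genes of the capillary bed and of the lipid-storing and adventitial fibroblasts also differed between young and deficient lungs. Of all genes, 26.9% were higher and 22.6% lower. Of 18 tested endothelial genes, 8 rose (7 without the 5 arrays) and 5 fell, and the share that fell was close to that of all genes. Among those that rose were Car4, the carbonic anhydrase of alveolar capillaries (1.67-fold), and Ace, the angiotensin-converting enzyme of the lung endothelium (1.59-fold). Pecam1, found on endothelium at large, was not called (0.10 ± 0.11). The count of 5 falls to 3 without young replicate 2 or 3, without deficient replicate 4 or 5, or without the 5 arrays. Of 13 fibroblast genes, 8 rose and 3 fell (5 rose without the 5 arrays). Dpep1 rose 2.28-fold and Pi16, of adventitial fibroblasts, 2.09-fold, while Meox2, a homeobox gene of embryonic mesenchyme, fell 2.55-fold. The differences of Dpep1 and Pi16 from control lungs were 0.01 ± 0.07 and -0.06 ± 0.13.

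Contractile genes that smooth muscle and myofibroblasts share fell in the deficient lungs. Of 14 tested genes of smooth muscle and myofibroblasts, 11 fell and none rose, against 22.6% of all genes lower, and control lungs gave the same counts. Acta2, smooth muscle actin, stood at 2807, 3157, 2863, 2109 and 2505 in young lungs and at 1578, 1778, 1288, 1043 and 1456 in deficient lungs. It fell 1.88-fold without overlap, and the deficient lungs spanned the range of the control lungs (1104 to 1484). Myocd, the coactivator that drives smooth muscle genes, fell 4.4-fold, from 773 to 1140 in young lungs to 175 to 247 in deficient lungs. Myh10, nonmuscle myosin, fell 1.54-fold. Synpo2 fell 2.12-fold on the probe set used, while another of its probe sets was called in the opposite direction. Pdgfra, the receptor of myofibroblast precursors, was not called (-0.05 ± 0.11).

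Part of the genes that guide septation fell as well. Of 20 tested genes, 10 fell and 3 rose in deficient lungs and 12 fell and 3 rose in control lungs. The 3 that rose in control lungs become 1 without young replicate 2 or without the 5 arrays. Fgf18, a growth factor of the alveolar stage, fell 4.1-fold, Wnt2 fell 2.97-fold and Lef1, a transcription factor of the Wnt pathway, fell 1.98-fold. Gli1, a target and effector of hedgehog signalling, had 483, 518, 412, 389 and 481 in young lungs, 210, 202, 183, 114 and 191 in deficient lungs and 103, 124, 131, 128 and 87.9 in control lungs. It fell 2.44-fold in deficient lungs and stayed 1.48-fold above control (adjusted p = 0.017). Vegfa, the endothelial growth factor of the alveolar epithelium, rose 1.26-fold. Retinoid genes, by contrast, mostly rose, with 8 of 13 higher and 1, Crabp1, lower (5 higher without the 5 arrays, 2 lower without young replicate 1 or deficient replicate 1), among them the retinal dehydrogenases Aldh1a1 and Aldh1a3 (3.45-fold and 3.16-fold). Aldh1a3 was 1.66-fold below control lungs (adjusted p = 0.00355), a call lost without the 5 arrays (adjusted p = 0.0849).

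Matrix genes of the young lung were turned down, and part of them stopped short of the control level. Of 20 tested genes of elastic fibre assembly, 14 fell and 2 rose in deficient lungs, and 17 fell and 1 rose in control lungs. The direct test put 9 higher and 1 lower in deficient than in control lungs (7 and 0 without the 5 arrays). The 2 that rose in deficient lungs become 1 without the 5 arrays, without young replicate 1, 4 or 5, control replicate 3, 4 or 5 or deficient replicate 1, 2, 3 or 5, and with no filter, median centring, averaged probe sets or the replicate number as a block. Eln itself was not called on the probe set used (-0.06 ± 0.09), with 6669 to 8799 in deficient and 7310 to 9011 in young lungs. Another probe set of Eln stood at -0.48 against young and -0.04 against control lungs. On the set used the difference from control, 0.24, was not called (adjusted p = 0.0834). It would be without deficient replicate 5 or control replicate 2, or with the replicate number as a block (adjusted p = 0.0303, 0.048 and 0.0358). Mfap2, a microfibril protein, had 3869, 3900, 3766, 3775 and 3884 in young lungs. It had 1483, 1570, 1686, 1440 and 1413 in deficient lungs and 789, 961, 965, 833 and 737 in control lungs. The 3 groups were fully apart, and the deficient lungs were 2.52-fold below young and 1.76-fold above control lungs (adjusted p = 1.12e-05 against control). Fbln2, a fibulin, was likewise 2.44-fold below young and 1.31-fold above control lungs. Ltbp2, a latent TGF-beta binding protein of microfibrils, was the member that went the other way, 3.13-fold below young lungs and 1.47-fold below control lungs (adjusted p = 0.0106), a call lost without the 5 arrays (adjusted p = 0.151).

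Among 28 tested genes of collagens and interstitial matrix, 13 fell and 2 rose in deficient lungs, against 20 and 1 in control lungs (2 rose there without young replicate 3 or control replicate 1), and 9 were higher in deficient than in control lungs. Without the 5 arrays 10 fell in deficient and 18 in control lungs, and 7 were higher in deficient than in control lungs. Vcan, the large proteoglycan of immature stroma, had 2562, 2303, 2480, 2804 and 2824 in young lungs, 629, 1213, 1156, 1018 and 1420 in deficient lungs and 470, 576, 571, 634 and 447 in control lungs. Deficient replicate 1 thus fell within the control range while the other 4 lay above it, and the excess over control was 1.94-fold (adjusted p = 0.00182). Tnc, tenascin of growing tissue, fell 2.75-fold in deficient and 4.11-fold in control lungs, and Col5a1, which starts collagen fibrils, fell 1.99-fold and 2.87-fold. Dcn and Sparc were not called in deficient lungs (-0.03 ± 0.12 and 0.01 ± 0.07). Of 17 basement membrane genes 13 fell and 3 rose (11 and 2 without the 5 arrays). Lama2 fell 2.17-fold and Lamb1, another laminin chain, 1.76-fold, and here 4 members were higher and 1 lower in deficient than in control lungs (1 and 0 without the 5 arrays). The count of 4 falls to 2 without control replicate 4, control replicate 5 or deficient replicate 2.

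Imprinted growth genes fell in the deficient lungs, and 10 of 16 stayed above the control level. Of 16 tested, 14 fell in deficient lungs and 16 in control lungs, with list medians of -0.85 and -1.27, and the direct test put 10 higher and 1 lower in deficient lungs (5 and 0 without the 5 arrays). Plagl1, a zinc finger gene that controls other imprinted genes, had 4815, 5415, 4390, 3666 and 5126 in young lungs. It had 2313, 2381, 2270, 2220 and 2166 in deficient lungs and 1404, 1352, 1290, 1174 and 1584 in control lungs. The groups did not overlap, and the deficient lungs were 2.04-fold below young and 1.67-fold above control lungs (adjusted p = 0.000173 against control). H19, a growth-restraining RNA next to Igf2, had 1991, 4756, 1967, 2801 and 1939 in young lungs, 377, 812, 648, 900 and 1183 in deficient lungs and 170, 526, 261, 188 and 257 in control lungs. Its fall was 3.38-fold in deficient and 9.24-fold in control lungs, and the lowest deficient lung overlapped with the highest control lung.

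The excess of H19 over control, 2.74-fold (adjusted p = 0.0105), is lost without the 5 arrays (adjusted p = 0.073). Igf2, the growth factor of the fetus, fell 3.48-fold in deficient lungs, from 876 to 2423 in young lungs to 308 to 432, and its difference from control lungs, 0.38 ± 0.23, was not called. Peg12 fell 1.9-fold and Meg3, a long RNA of the Dlk1 region, 1.87-fold, and both were above control lungs, by 0.71 ± 0.08 and 0.87 ± 0.20. Dlk1, a ligand that holds back differentiation, was not called between deficient and young lungs (-0.16 ± 0.22). Its deficient lungs split, at 240, 304 and 303 against 137 and 144, and the young lungs lay between 202 and 276. Against control lungs Dlk1 was called (0.85 ± 0.22, adjusted p = 0.021), but not without control replicate 4, deficient replicate 2 or deficient replicate 3 (adjusted p between 0.0567 and 0.0578) or without the 5 arrays (adjusted p = 0.0901).

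Other regulators of fetal growth were mixed, with 5 of 12 lower and 2 higher in deficient lungs (1 higher without young replicate 3 or deficient replicate 1). In control lungs 8 were lower and 1 higher, and 7 were higher in deficient than in control lungs (5 without the 5 arrays). Mycn, a transcription factor of progenitor cells, kept a signal of 342, 319, 332, 324 and 249 in deficient lungs, against 301, 322, 339, 275 and 283 in young and 128, 264, 107, 147 and 149 in control lungs. It was not called between deficient and young lungs, where the interval ran from -0.31 to 0.39, and was 1.95-fold above control lungs (adjusted p = 0.00147). Igf2bp3, an RNA-binding protein that stabilises fetal growth messages, fell 2.57-fold and was still 0.81 ± 0.13 above control lungs. The list for growth hormone and the insulin-like growth factors (IGF) had 14 tested members, of which 6 fell and 1 rose (2 rose without young replicate 1). The share of the list called either way was close to that of all genes (49.5%). Of all genes, 22.6% were lower and 26.9% higher. Igf1, the growth factor whose level follows nutrition, had 3832, 4078, 3665, 3250 and 3973 in young lungs, 3221, 2791, 3481, 2888 and 2841 in control lungs and 2206, 2122, 2329, 1807 and 2081 in deficient lungs. The deficient lungs thus had the lowest values, 1.78-fold below young and 1.44-fold below control lungs (adjusted p = 0.0008 against control). Igf1r, its receptor, fell 1.42-fold but was 1.3-fold above control, and Ghr, the growth hormone receptor, fell 1.45-fold with no difference called against control.

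**Figure D3:**
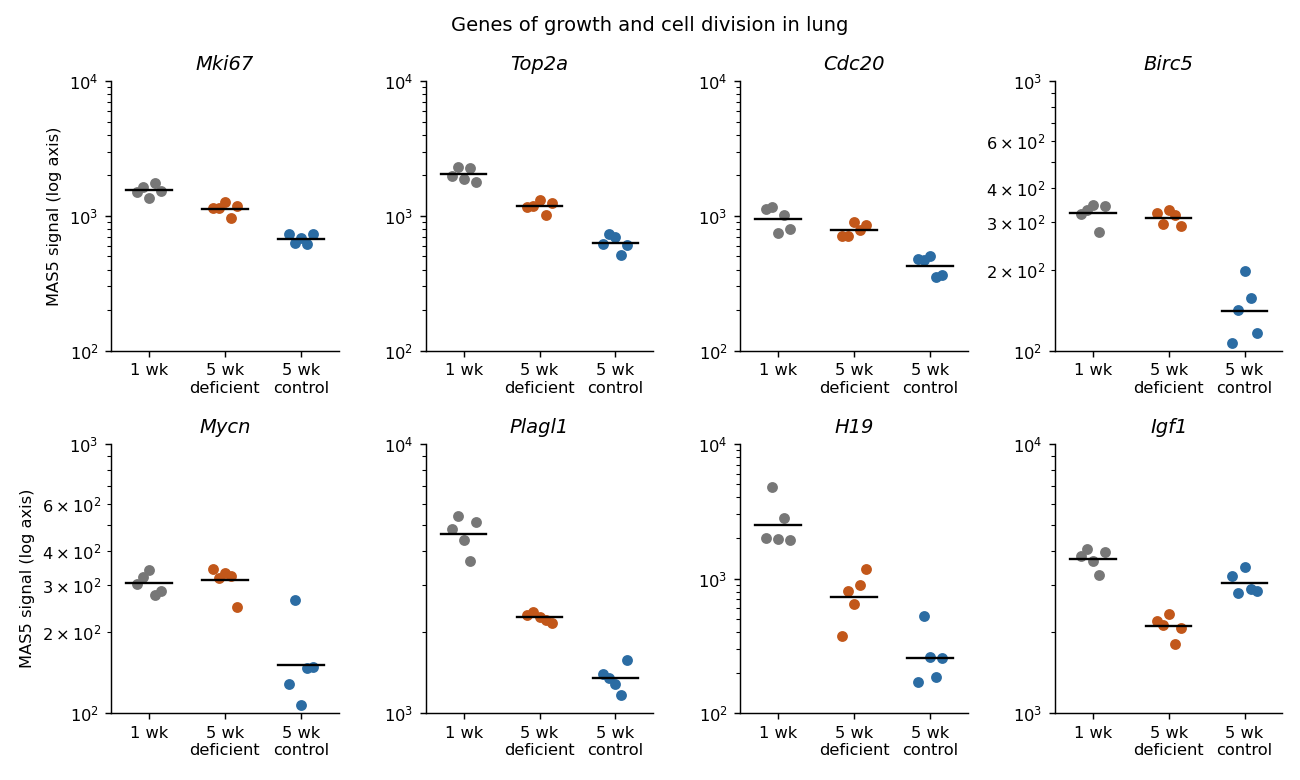
Signal of 8 genes of growth and cell division on each of the 15 lung arrays (log axis; each point is 1 array, bars are geometric means). Deficient lungs lie near young lungs for Mycn, Birc5 and Cdc20, between young and control lungs for Mki67, Top2a, Plagl1 and H19, and below both for Igf1.

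Genes of cell division fell in the deficient lungs, and less far than in control lungs. Promoters of mitotic genes typically carry CCAAT boxes and a downstream element called the cell cycle homology region (CHR), through which they are repressed in resting cells. The CHR core TTTGAA was found on either strand within 250 bases upstream of the start in 8 of 20 tested mitosis genes with a RefSeq promoter (40%), against 17.2% of all 27457 genes, and CCAAT in 16 of 20 (80.0%), against 36.1%. Both were present in 8 of 20, against 6.32% of all. These are matches of letters, not tested sites. The 3 promoter stretches below come from genes whose values follow, each from 120 bases upstream to the base before the start (RefSeq, build GRCr8), with matches to TTTGAA and CCAAT or their reverse complements in capitals; Cdc20 lies at chr5:137255800-137255919 on the minus strand, Cdk1 at chr20:19265173-19265292 on the plus strand and Top2a at chr10:84473094-84473213 on the minus strand.
Cdc20: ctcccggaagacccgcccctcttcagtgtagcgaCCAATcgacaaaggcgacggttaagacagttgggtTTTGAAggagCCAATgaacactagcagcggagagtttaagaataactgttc
Cdk1: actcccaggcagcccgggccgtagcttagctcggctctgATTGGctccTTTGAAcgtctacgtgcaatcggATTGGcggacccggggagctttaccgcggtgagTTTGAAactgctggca
Top2a: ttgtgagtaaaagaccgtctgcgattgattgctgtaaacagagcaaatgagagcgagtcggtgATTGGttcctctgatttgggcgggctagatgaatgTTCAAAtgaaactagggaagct

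Of 24 tested mitosis genes, 19 fell and none rose in deficient lungs (14 fell without the 5 arrays). In control lungs 23 fell, and the list medians were -0.46 in deficient and -1.18 in control lungs. In the direct test 22 of 24 were higher in deficient than in control lungs (20 without the 5 arrays). None was lower, and 6.22% of all genes were higher. Top2a, the topoisomerase that untangles replicated chromosomes, had 1973, 2316, 1880, 2259 and 1787 in young lungs. It had 1173, 1178, 1300, 1016 and 1255 in deficient lungs and 616, 737, 696, 514 and 606 in control lungs. The 3 groups did not overlap, with the deficient lungs 1.71-fold below young and 1.85-fold above control lungs (adjusted p = 5.01e-05 against control). Mki67, the marker of cycling cells, had 1137, 1136, 1263, 967 and 1183 in deficient lungs, against 1365 to 1756 in young and 623 to 731 in control lungs. This put it 1.36-fold below the first and 1.66-fold above the second. Cdk1, the kinase that starts mitosis, fell by 0.36 in deficient lungs and by 1.22 in control lungs on the log2 scale.

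Some mitotic genes showed no called difference from 1 wk at all. Birc5, survivin of the dividing spindle, had 324, 295, 332, 318 and 289 in deficient lungs and 321, 333, 346, 277 and 344 in young lungs, with 107 to 197 in control lungs. Deficient and young lungs overlapped almost entirely (-0.05 ± 0.12), and the deficient lungs were 2.09-fold above control (adjusted p = 5.01e-05). Cdc20, the activator of anaphase, had 713, 712, 899, 787 and 859 in deficient, 1126, 1162, 751, 1016 and 794 in young and 350 to 505 in control lungs. Its difference from young lungs, -0.27 ± 0.13, was not called, though it would be without young replicate 3 (adjusted p = 0.0384). Genes of DNA replication gave a like picture, with 19 of 24 lower in deficient lungs, 24 of 24 lower in control lungs and 19 higher in deficient than in control lungs. Without the 5 arrays these counts were 15, 24 and 14. Mcm4, of the replicative helicase, fell 1.6-fold in deficient and 2.45-fold in control lungs, and Rrm1, which makes deoxynucleotides, fell 1.58-fold and 1.98-fold. Tk1, thymidine kinase, was not called against young lungs (-0.15 ± 0.09) unless young replicate 3 was left out (adjusted p = 0.0474) or its probe sets were averaged (adjusted p = 0.00128), and stood 1.73-fold above control lungs (adjusted p = 5.01e-05).

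**Figure D4:**
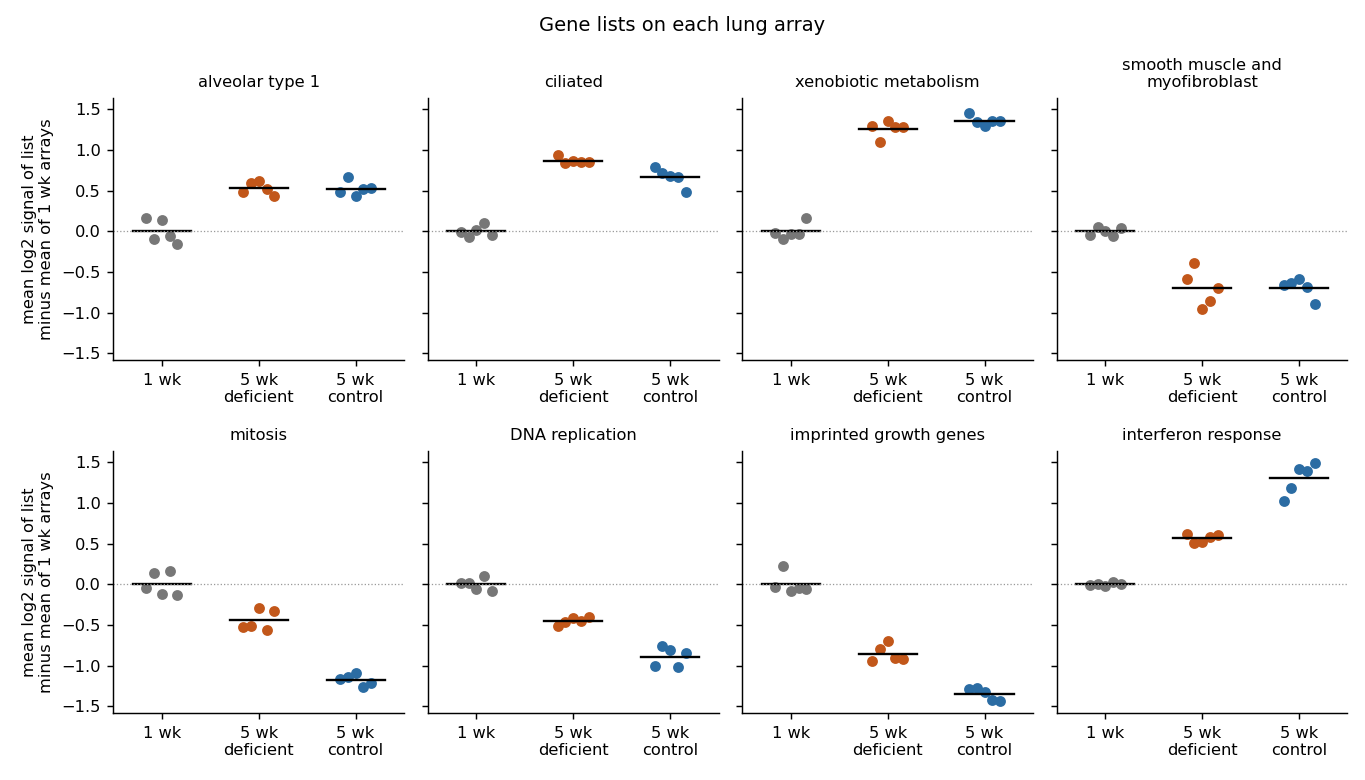
Mean log2 signal of 8 gene lists on each of the 15 lung arrays, relative to the mean of the 5 young arrays (each point is 1 array, bars are group means). Alveolar type 1, ciliated and xenobiotic lists are raised on deficient and control arrays alike, the smooth muscle list is lowered on both, and the deficient arrays lie between young and control arrays for the mitosis, DNA replication, imprinted and interferon lists.

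Genes of the interferon response rose in the deficient lungs, and 19 of 24 stayed below control lungs. Many genes that respond to interferon carry the promoter element ISRE. Of 18 tested interferon genes with a RefSeq promoter, 11 held the ISRE letters, GAAA and again GAAA with 2 bases of any kind between, on either strand within 250 bases upstream (61.1%), against 3.61% of all 27457 genes. Promoter stretches of 3 members described below are shown (build GRCr8), with the matches in capitals, which in Oas1a and Bst2 are 2 overlapping matches read as 1 run: Irf7 at chr1:205800024-205800143 on the minus strand, Oas1a at chr12:41330346-41330465 on the plus strand and Bst2 at chr16:18254999-18255118 on the minus strand.
Irf7: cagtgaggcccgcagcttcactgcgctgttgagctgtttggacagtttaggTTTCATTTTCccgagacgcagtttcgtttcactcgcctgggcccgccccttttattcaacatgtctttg
Oas1a: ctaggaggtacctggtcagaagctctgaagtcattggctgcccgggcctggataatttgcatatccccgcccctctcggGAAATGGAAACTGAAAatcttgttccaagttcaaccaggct
Bst2: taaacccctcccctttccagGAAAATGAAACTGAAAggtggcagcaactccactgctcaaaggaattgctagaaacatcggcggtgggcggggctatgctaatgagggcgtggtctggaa

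Of 24 tested interferon response genes, 18 rose and none fell in deficient lungs (14 rose without the 5 arrays). In control lungs 22 rose, and the list medians were 0.60 in deficient and 1.17 in control lungs. The direct test put 19 of 24 lower in deficient than in control lungs (14 without the 5 arrays). None was higher, and 5.57% of all genes were lower. Isg15, a ubiquitin-like protein induced by interferon, had 93.7, 172, 139, 205 and 119 in young lungs. It had 365, 257, 300, 360 and 401 in deficient lungs and 724, 938, 1051, 1066 and 1232 in control lungs. The deficient lungs lay between the other groups without overlap, 2.22-fold above young and 2.88-fold below control lungs (adjusted p = 6.81e-05 against control). Irf7, the transcription factor that amplifies the response, had 529, 559, 501, 552 and 586 in deficient lungs, against 307 to 328 in young and 910 to 1995 in control lungs. Oas1a, which senses double-stranded RNA, rose by 1.02 ± 0.18 and Bst2, which tethers budding viruses, by 0.89 ± 0.09, while control lungs were higher by a further 1.18 and 0.45.

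Mx1, an antiviral GTPase, was not called above young lungs: the deficient lungs held 148, 105, 116, 127 and 147, the young lungs 76.3, 100, 123, 98.3 and 123, and the control lungs 221, 312, 362, 298 and 500. Deficient and young lungs overlapped, and Mx1 was 2.39-fold below control lungs (adjusted p = 0.000244). The immunoproteasome genes Psmb8 and Psmb9, which cut peptides for presentation, rose 1.78-fold and 1.66-fold and were 1.87-fold and 1.89-fold below control. Of 9 genes of MHC class II presentation, 7 rose in deficient and 8 in control lungs, and 5 were lower in deficient than in control lungs. That last count falls to 2 without control replicate 5, and to 3 without deficient replicate 2, without deficient replicate 3 or without the 5 arrays. Ctss, the protease that trims the invariant chain, rose 1.74-fold and was 1.49-fold below control (adjusted p = 4.09e-05). Of 15 genes of mucosal immunity, by contrast, 12 rose in deficient and 12 in control lungs, and 3 were lower in deficient than in control lungs (1 without the 5 arrays).

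Markers of immune cells moved with the interferon and class II lists, and their part in those differences was not tested. Of 17 tested genes of T cells and natural killer (NK) cells, 11 rose and 2 fell in deficient lungs, against 15 and 2 in control lungs. In the direct test 11 were lower in deficient than in control lungs (7 without deficient replicate 3, 5 without the 5 arrays). Members at low signal in young lungs can pass the filter through the control lungs alone, so these counts can be partly set by the filter. With the 60th percentile filter, which tests fewer genes, 4 members rose and 1 fell in deficient lungs, and fewer were lower than in control lungs. The mean log2 signal of the 17 genes was 6.80 to 7.25 in young, 7.47 to 7.99 in deficient and 8.06 to 8.61 in control lungs. Gzmb, a granzyme of cytotoxic cells, had 14, 20, 6.75, 21.4 and 4.45 in young, 93, 91.6, 64.1, 94.6 and 63 in deficient and 132, 178, 242, 170 and 291 in control lungs. The deficient lungs were above young by 1.75 ± 0.21 and below control by 1.14 ± 0.21, with no overlap on either side. All young and deficient values of Gzmb lay below the 40th percentile of their arrays (97.4 to 116). It thus passed the filter through the control lungs alone, and its values are a description at low signal. Lck, the kinase of the T cell receptor, rose 1.49-fold and was 1.54-fold below control.

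Of 8 tested genes of B cells and plasma cells, 4 rose in deficient and 7 in control lungs, and 4 were lower in deficient than in control lungs (1 without the 5 arrays). With the 60th percentile filter, 1 rose in deficient lungs and 1 was lower than in control lungs. The plasma cell genes Jchain and Mzb1 rose in deficient lungs by 3.76 ± 0.35 and 1.33 ± 0.13, with no difference called from control. Cd79b, of the B cell receptor, was not called against young lungs (0.02 ± 0.25), with 68.6 to 151 in deficient and 72.2 to 136 in young lungs, and was 1.10 ± 0.25 below control (adjusted p = 0.00981), a call lost without the 5 arrays (adjusted p = 0.167). Of 16 macrophage genes, 9 rose in deficient and 13 in control lungs, and 6 were lower in deficient than in control lungs, a count that falls to 3 without control replicate 4 or 5, 2 without deficient replicate 2 and 1 without the 5 arrays. Their mean log2 signal was 8.57 to 8.83 in young, 9.21 to 9.28 in deficient and 9.42 to 9.71 in control lungs. C1qc, a complement subunit of tissue macrophages, rose 2.07-fold, and Cd68, a lysosomal protein of macrophages, 2.08-fold.

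Of 8 mast cell and eosinophil genes, 6 rose in deficient and 6 in control lungs, and 4 were lower in deficient than in control lungs. That count falls to 2 without any 1 of control replicates 1 to 4 or deficient replicates 1 to 3, and to 0 without the 5 arrays. Cpa3, the mast cell carboxypeptidase, had 330, 412, 366, 561 and 833 in deficient lungs, between 139 to 213 in young and 685 to 1227 in control lungs, and its call against control (adjusted p = 0.00767) is lost without the 5 arrays (adjusted p = 0.108). Hdc, which makes histamine, rose 2.06-fold with a difference from control of 0.06 ± 0.09. Among 6 neutrophil genes, 4 fell and 1, Fcnb, a ficolin, rose by 0.56 ± 0.20, a call lost without young replicate 2 or 5, without deficient replicate 4 or 5, and without the 5 arrays. Beside Stfa3, the antimicrobial peptide Camp fell by 2.27 ± 0.38 and S100a8 1.96-fold. None of the 9 tested erythroid genes was called in any of the 3 comparisons.

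**Figure D5:**
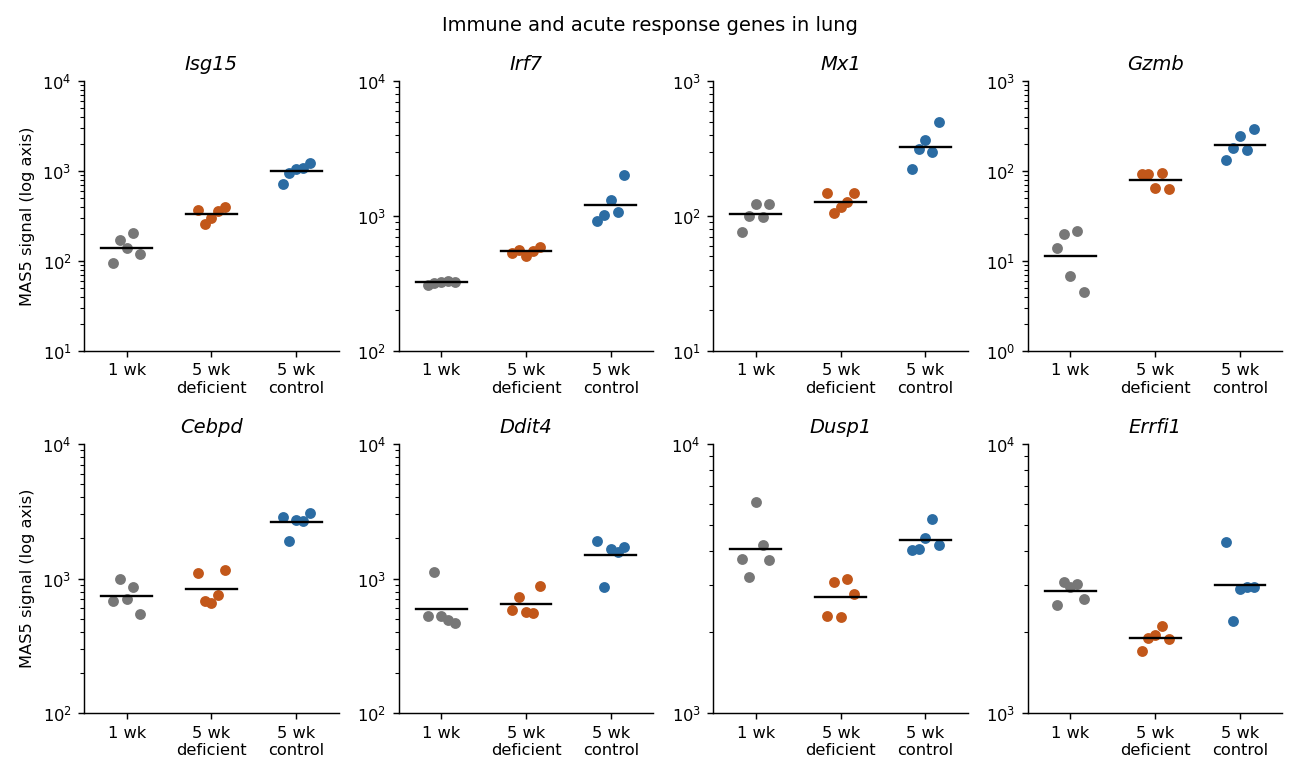
Signal of 8 genes of immune and acute responses on each of the 15 lung arrays (log axis; each point is 1 array, bars are geometric means). Isg15, Irf7 and Gzmb lie between young and control lungs in the deficient group, Mx1, Cebpd and Ddit4 lie near the young level, and Dusp1 and Errfi1 lie lowest in the deficient group.

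The genes with the clearest single patterns were picked by the tests themselves, so the values that follow are a description. Cebpd, a transcription factor of the acute-phase response, had 683, 999, 700, 865 and 546 in young lungs and 1092, 678, 664, 753 and 1156 in deficient lungs, with 1896 to 3085 in control lungs. The deficient lungs overlapped with the young lungs and stood 3.05-fold below control. Siglec5, a receptor of myeloid cells, and Fyb1, an adaptor of T cells and myeloid cells, followed the same order, with 60.6 to 136 against 48.6 to 104 for Siglec5 and 117 to 241 against 103 to 189 for Fyb1 in deficient and young lungs. Neither call against control holds without the 5 arrays (adjusted p = 0.087 for Siglec5 and 0.0604 for Fyb1). The Siglec5 values of both groups ran from below the filter level to little above it (97.4 to 113 in young, 98.6 to 116 in deficient lungs). They are a description at low signal. RT1-T24-3, Batf2, Fcrla and Gzmm completed the genes that rose with age in control lungs alone by this rule, but each also rose in deficient lungs when 1 array was left out. RT1-T24-3 was called above young lungs without deficient replicate 5 (adjusted p = 6.36e-05), as was Gzmm (adjusted p = 0.0259). Batf2 was called without deficient replicate 2 (adjusted p = 0.00397) or young replicate 1 (adjusted p = 0.0425), and Fcrla without young replicate 1 (adjusted p = 0.0296). The calls against control of RT1-T24-3 and Gzmm are lost without the 5 arrays (adjusted p = 0.128 and 0.0974), that of RT1-T24-3 also without control replicate 1, 3 or 4 or with only the 10 arrays compared, and that of Gzmm without control replicate 5 or deficient replicate 3 and with the replicate number as a block (adjusted p = 0.0548).

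Among genes that fell with age in control lungs were the cell cycle genes Ccne2, E2f7, Pbk, Ube2t, Mis18a, Wdr62 and Cdc20. In deficient lungs these were called above control and not called different from young lungs, which does not show that they stayed at the young level. Ccne2, the cyclin that starts DNA replication, had 512, 342, 463, 464 and 584 in deficient and 599, 409, 374, 558 and 453 in young lungs, against 141 to 237 in control lungs. With the mean of its probe sets Ccne2 did fall from 1 wk, by 0.40 on the log2 scale. Its other probe set stood at -0.78 against young and -0.17 against control lungs, where the set used stood at 1.21 against control. E2f7, Pbk, Ube2t and Mis18a each passed the test against young lungs when 1 array was left out (adjusted p = 0.0335 without young replicate 1, 0.0254 without young replicate 5, 0.0266 without young replicate 3 and 0.000212 without deficient replicate 3). Ube2t also passed it without deficient replicate 1 (adjusted p = 0.0456) and Mis18a without the 5 arrays (adjusted p = 0.00967). The difference of Wdr62 from control is lost without control replicate 1 or 4, without deficient replicate 1, 3 or 5, with only the 10 arrays compared (adjusted p between 0.0529 and 0.0596), with the replicate number as a block (adjusted p = 0.0527) and without the 5 arrays (adjusted p = 0.173).

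Genes caught between both ages, beside Pigr, Tgfbi, Fmo1, H19 and, at low signal, Fbn2 above, included Ccn5, a matricellular protein that restrains smooth muscle growth. Ccn5 had 48 to 107 in young, 184 to 324 in deficient and 593 to 768 in control lungs. Tro, trophinin, ran the other way, from 596 to 732 in young lungs over 116 to 213 in deficient to 60.5 to 88.3 in control lungs. Chodl and the mast cell protease Mcpt10 rose by 1.45 ± 0.22 and 1.84 ± 0.33 in deficient lungs, against 2.94 and 3.42 in control lungs.

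A few genes had moved further from the young level in deficient than in control lungs. Sox2, the transcription factor of airway epithelial progenitors, had 611, 475, 564, 505 and 482 in deficient lungs, against 196 to 232 in young and 348 to 429 in control lungs. Morn5 had 219 to 261 in deficient lungs, above 113 to 172 in control and 63.9 to 100 in young lungs. Cfap144, a protein of ciliary microtubules, rose 2.48-fold in deficient and 1.82-fold in control lungs, a difference not called without control replicate 4 (adjusted p = 0.0527). Ccdc3, Fibin and Spon2, which encode secreted proteins, fell 2.39-fold, 2.76-fold and 2.02-fold in deficient lungs, against 1.81-fold, 1.61-fold and 1.48-fold in control lungs. Without the 5 arrays the differences from control of Sox2 (adjusted p = 0.0736), Cfap144 (adjusted p = 0.101), Fibin (adjusted p = 0.0631) and Spon2 (adjusted p = 0.0524) were not called.

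Other genes differed in deficient lungs from both ages, which were not called different from each other. Ccno, a cyclin needed to form multiciliated cells, had 373, 421, 370, 363 and 413 in deficient lungs and no more than 276 in any young or control lung. Dusp1, a phosphatase that ends MAP kinase signals, had 2295, 3078, 2273, 3163 and 2778, below all young (3196 to 6064) and control lungs (4051 to 5263). Errfi1, an inhibitor of the EGF receptor, had 1711 to 2105, below 2515 to 3077 in young and 2201 to 4329 in control lungs. Per1, of the clock, had 514 to 691 in deficient lungs, 749 to 1597 in young lungs and 579 to 1580 in control lungs. Its call against control is lost without control replicate 1, control replicate 5 or deficient replicate 4 (adjusted p between 0.0502 and 0.0556). Without the 5 arrays Per1 was called neither against control (adjusted p = 0.238) nor against young lungs (adjusted p = 0.129), and Dusp1 was not called against control (adjusted p = 0.0515).

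Dusp1, Errfi1 and Per1 belong to the list of the glucocorticoid response. Beside genes that glucocorticoids induce, it holds their receptor Nr3c1 and the enzyme gene Hsd11b1. In control lungs 5 of its 12 tested members rose and none fell. In deficient lungs 5 rose and 3 fell (2 fell without the 5 arrays), against 26.9% of all genes higher and 22.6% lower. The share that fell was close to that of all genes. The members that rose in deficient lungs included Klf9, a repressor induced by these hormones (2.35-fold), with a difference from control of -0.22 ± 0.14. Against control lungs, 3 members were lower and 1 higher (1 and 0 without the 5 arrays), and the 1 higher call is also lost without control replicate 2, 4 or 5 or deficient replicate 1 or 4.

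Genes that answer a lack of amino acids moved in both directions with age, in shares close to those of all genes. Of 19 tested, 4 rose and 6 fell in deficient lungs (52.6% called, against 49.5% of all genes). In control lungs 6 rose and 5 fell (57.9%, against 55.3%). In the direct test 3 (15.8%) were lower and none higher in deficient than in control lungs, against 11.8% of all genes called either way. That count of 3 falls to 1 without control replicate 1, control replicate 4, deficient replicate 2, deficient replicate 5 or the 5 arrays. Asns, asparagine synthetase, a target of the amino acid response, rose 1.34-fold in deficient and 1.3-fold in control lungs, and the difference was 0.04 ± 0.07. Ddit4, an inhibitor of mTORC1, had 583, 731, 568, 552 and 881 in deficient lungs and 531, 1124, 525, 493 and 466 in young lungs. In control lungs it ranged from 870 to 1889, and the deficient lungs were 2.26-fold below (adjusted p = 0.00506). Of 6 tested genes of tryptophan and serotonin handling, 1 rose and 1 fell in deficient lungs, and 2 rose and 1 fell in control lungs. Slc6a4, the serotonin transporter, rose 1.78-fold in deficient lungs, and Ddc, which makes serotonin from hydroxytryptophan, fell 2.67-fold. Ddc was 0.36 above control lungs (adjusted p = 0.0298), a call lost in several settings, among them without the 5 arrays (adjusted p = 0.073). The direct test put 1 member higher and 2 lower in deficient than in control lungs (0 and 0 without the 5 arrays).

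Lists of basic metabolism held few called genes. Of 18 tested genes of mitochondrial respiration, 1 rose in deficient lungs, Ppargc1a, the coactivator of mitochondrial genes (1.38-fold), and none fell (1 fell without the 5 arrays, and 2 rose without deficient replicate 5). Of 14 genes of cholesterol synthesis 1 fell, Mvk, the mevalonate kinase, by 0.23 on the log2 scale (none without the 5 arrays, 2 without control replicate 2), and no member was called between deficient and control lungs.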

How the data were processed

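Single-colour oligonucleotide arrays were deposited as linear intensity values. The submitters' processing notes name MAS5 for them, without a version. Per the labels, 2 ug of total RNA was labelled with biotin. The trimmed mean signal was 500.1 to 500.2 on every array (2% left out at each end), so no further normalization was applied.

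Of 31099 probe sets, 57 were controls, 20826 named 1 gene, 436 several and 9780 none in the platform annotation. Signals were turned into log2(signal + 16), the brightest probe set on average stood for its gene (14217 genes), and genes were tested if 5 or more lung arrays put them at or above their own 40th percentile (10802). One model over the 15 lung arrays was fitted with limma 3.58.1 (lmFit, eBayes) in R 4.3.3, two-sided, with Benjamini-Hochberg adjustment over all genes and calls at 0.05. Confidence intervals are 95%. Folds are given where both group means, and at least 3 of 5 arrays of each group, reach the 40th percentile.

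The 40 gene lists hold 703 genes, 612 on the array and 529 tested; 83 were below the filter. Named genes are the 10 that rose and 10 that fell most with no overlap of groups, up to 8 per direction at the young level, up to 6 per direction that are intermediate, ahead or unlike both ages, of each list up to 4 with the smallest and 2 with the largest adjusted p and those called between diets, and a fixed panel. The members, lists and comparisons were chosen with earlier results of these data known. Promoters came from RefSeq (GRCr8). The same-numbered arrays of different groups did not deviate together (correlations from -0.16 to 0.17), so the numbers were not treated as pairs. The labels call the arrays biological replicates. The procedure was tested on simulated data. Figures used matplotlib 3.10.9 in Python 3.11.15.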

Additional observations from a re-analysis of the deposited data

Results flagged for a closer look

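Within groups of 5 lung arrays, 201 groups of values (genes given array by array, and list means) were examined for a sample far from the others, measured as a gap above 0.71 of the group's range. Chance alone sets apart about 1 in 20 such groups, and 17 were set apart here.

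In young lungs, replicate 1 stood high for Ly6i (1875), replicate 2 for Ddit4 (1124), replicate 5 low for Fmo1 (249.5) and replicate 3 low for Cpa3 (139). Young replicate 2, which was also high in skeletal muscle genes, had the highest mean log2 signal of imprinted growth genes (10.91), young replicate 4 the lowest of mucosal immunity genes (8.306) and young replicate 3 the lowest of mast cell and eosinophil genes (6.771). In deficient lungs, replicate 4 was low for Gli1 (113.6) and replicate 5 low for Mycn (249). Deficient replicate 5 was also apart in the mean log2 signal of cholesterol synthesis genes (9.89) and of MHC class II genes (9.669), and deficient replicate 1 in that of ciliated genes (9.563). In control lungs, replicate 2 was low for Ddit4 (870.1), replicate 1 high for Dlk1 (188.1) and replicate 5 low for Clec3b (84.87). Control replicate 3 was apart in the mean log2 signal of mitochondrial respiration genes (11.41) and control replicate 2 in that of MHC class II genes (10.79).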

How the results depend on the processing

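The alternatives were pseudocounts of 1 and 64, no filter or one at the 60th percentile, quantile normalization, median centring, averaging or separating the probe sets of a gene, a trended, robust variance, only the 10 arrays compared, a block for the replicate number, and omitting arrays singly. Total counts of called genes stayed within 1.5 times of those reported under each of these. Counts within gene lists, many of them small, moved further in 94 combinations of list, direction and setting for deficient against young lungs, 126 for control against young and 259 between the diets, the setting without 5 arrays included. No called difference of a named gene turned its direction on the chosen probe set. With the replicate number as a block, 5130 genes were called between deficient and young lungs and 1072 between deficient and control lungs. Leaving out single arrays gave 4970 to 5363 genes between deficient and young lungs (2666 to 2940 higher, 2263 to 2470 lower), 5622 to 5995 between control and young lungs, and 941 to 1352 between the diets (510 to 721 higher, 431 to 640 lower). Leaving out the 5 arrays high in genes of other organs, chosen after seeing the data, left 3764 called between deficient and young lungs and 648 between the diets, 384 higher and 264 lower, with fewer samples in each group. Median centring moved the share of lower genes among those called from 45.7% to 50.6% for deficient against young lungs and from 47.3% to 57.3% between the diets. With the 60th percentile filter, which tests fewer genes, 4 genes of the T cell and NK cell list were higher in deficient than in young lungs and 3 were lower than in control lungs, and 1 gene of the B cell and plasma cell list was higher than in young lungs. Of 41 named genes with further probe sets, 1 (Synpo2, lower in deficient than in young lungs) had a probe set called in the opposite direction. The number of arrays limits the precision.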
